A study of Vitis vinifera with 18 samples.

Results

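Cabernet Sauvignon and Aglianico, 2 red varieties of grapevine (Vitis vinifera), were compared in fully ripe berries grown in the open field at Campania in southern Italy. The comparison rests on 5 of the 18 libraries of the series: the 3 Cabernet Sauvignon Campania libraries and replicates 1 and 2 of Aglianico Campania. The other libraries came from the same varieties at Molise and Sicily, and at all sites each replicate was a pool of 10 berries ground without seeds, from bush-trained vines. The library labelled Aglianico Campania replicate 3 was left out because its profile was that of Cabernet Sauvignon (the values follow). No treatment or genetic change separated the groups apart from variety. The study asked how the genotype and the growing site act together on gene expression.

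Ripe red berries accumulate sugars in the flesh and anthocyanin pigments in the skin, while organic acids decline and cell walls soften. Varieties differ in the timing and extent of these programmes, and also in the alleles and gene copies they carry. In counts alone, a gene that is silent in a variety and a gene whose sequence is absent from it cannot be told apart.

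The features were transcript clusters, groups of related assembled transcripts that carry numbers in place of gene names. Of 97442 cluster identifiers, 0 matched the RefSeq gene table, so no pathway, cell type or tissue marker could be looked up and the labelled tissue could not be checked against markers. The 5 libraries held 24050462 to 28141388 estimated counts in Cabernet Sauvignon and 31859647 and 22637307 in Aglianico. A cluster was kept when at least 2 of the 5 libraries held 10 or more counts, which left 25846 clusters with 98.5% to 99.8% of the counts of each library. Levels are CPM (a cluster's count scaled to a common library total) and are not corrected for transcript length. Log2 fold changes are Cabernet Sauvignon over Aglianico with libraries scaled by TMM (a trimmed mean of log ratios between libraries).

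The 5 libraries parted by variety. Across the 25846 clusters, log2 CPM correlated at 0.956 to 0.965 among the 3 Cabernet Sauvignon libraries, at 0.948 between the 2 Aglianico libraries and at 0.861 to 0.891 between the varieties. The library labelled Aglianico Campania replicate 3 correlated at 0.969 to 0.976 with Cabernet Sauvignon and at 0.874 to 0.884 with Aglianico replicates 1 and 2. These are correlations across clusters within pairs of libraries, and clusters are not independent replicates. The median standard deviation of log2 CPM (0.5 CPM added) among replicates, over clusters counted in all 5 libraries, was 0.21 in Cabernet Sauvignon and 0.27 in Aglianico. Broad library measures gave similar averages. Clusters with 10 or more counts numbered 25466, 22365 and 23965 in Cabernet Sauvignon and 24355 and 23332 in Aglianico. The 20 most abundant clusters held 19%, 18.7% and 19.8% of the counts in Cabernet Sauvignon and 22.9% and 16.7% in Aglianico. Exact two-sided permutation tests gave p = 0.9 for the number of clusters and p = 0.8 for the share, both 0.9 after Benjamini-Hochberg adjustment over the 2 tests, where 3 against 2 libraries cannot go below 0.1.

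Of the 25846 clusters, 3497 (13.5%) differed between the varieties at an adjusted p under 0.05 by the quasi-likelihood test of edgeR with Benjamini-Hochberg adjustment. Cabernet Sauvignon was higher for 1846 clusters (7.14%) and lower for 1651 (6.39%), so the calls were close to evenly split. The varieties did not overlap at 3496 of the 3497 called clusters, and at 47.2% of all clusters kept. The labels do not say whether the replicates came from separate vines, so p-values measure the spread between these samples. In pooled berry tissue, fewer cells of a type and less RNA per cell cannot be told apart. The 3497 calls became 1822, 1736 and 1581 without Cabernet Sauvignon replicates 1, 2 and 3, and with the left-out library added under its label edgeR called 0 clusters (2087 at an unadjusted p under 0.05), limma-voom 0 and DESeq2 208.

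Most clusters were read in every library. The 24684 clusters with at least 1 count in each of the 5 libraries made up 95.5% of those kept, and 2960 of them were called (12%), 1557 higher and 1403 lower in Cabernet Sauvignon. Their median log2 fold change was 0.01 over all 24684. Among the calls the median was 1.67 for higher clusters (quartiles 1.10 and 2.50) and -1.64 for lower clusters (quartiles of the size 1.03 and 2.52). A change of at least 2-fold was seen for 1268 higher and 1079 lower clusters, of at least 4-fold for 600 and 530, and of at least 16-fold for 87 and 91. The smallest called change was 0.57 on the log2 scale in both directions. The 2960 calls became 1437, 1331 and 1249 without Cabernet Sauvignon replicates 1, 2 and 3.

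**Figure D1:**
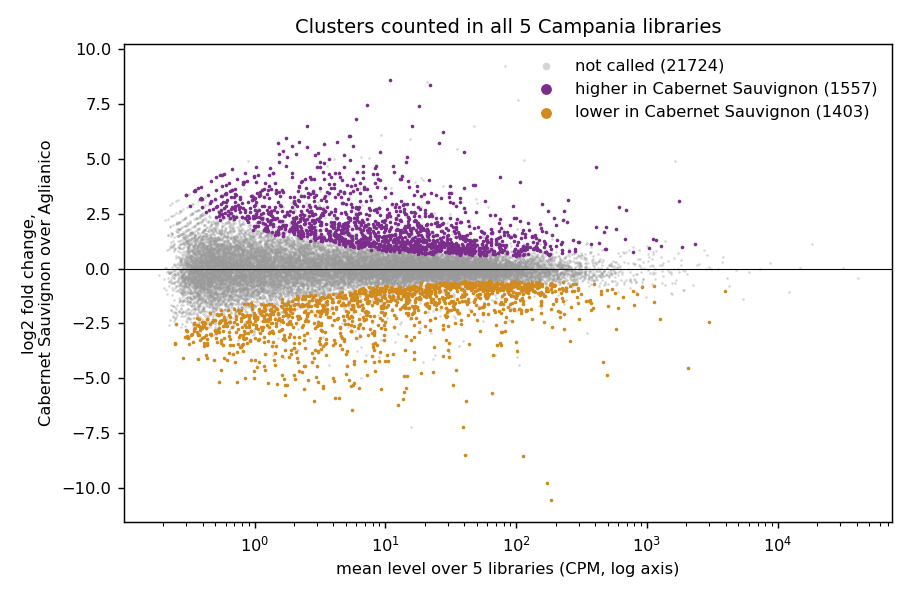
Log2 fold change (Cabernet Sauvignon over Aglianico) against mean level over the 5 libraries (CPM, log axis) for the 24684 clusters counted in all 5. Each point is a cluster; 1557 purple points were called higher and 1403 orange points lower in Cabernet Sauvignon, and the median size of a called difference is 2.85 below 1 CPM and 1.03 between 100 and 1000 CPM (log2 scale).

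How often a cluster was called depended on its level. Below a mean of 1 CPM, 122 clusters were higher and 173 lower in Cabernet Sauvignon of 6132 (4.81% called), with a median size of 2.85 on the log2 scale among calls. Between 1 and 10 CPM, 666 were higher and 521 lower of 8747 (13.6%), and between 10 and 100 CPM 661 were higher and 541 lower of 8020 (15%). Between 100 and 1000 CPM the calls leaned to Aglianico, with 101 higher and 162 lower in Cabernet Sauvignon of 1699 (15.5%). Over 1000 CPM, 7 were higher and 6 lower of 86 (15.1%), with a median size of 1.31. Below 1 CPM the calls also leaned to Aglianico, with 41.4% of calls higher in Cabernet Sauvignon, against 38.4% between 100 and 1000 CPM. Cabernet Sauvignon was higher for 56.1% of calls between 1 and 10 CPM and for 55% between 10 and 100 CPM. None of these leans was tested. Of the 100 most abundant clusters 14 were called, 7 in each direction, and of the 20 most abundant 2 were called.

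Large differences also reached abundant transcripts. The 20 most abundant called clusters counted in every library averaged 684 to 3971 CPM over the 5 libraries. Of these, 10 were higher and 10 lower in Cabernet Sauvignon, at log2 fold changes of -4.52 to 3.10. The varieties did not overlap at any of the 20, which the choice of called clusters nearly fixes. They did not overlap at 3496 of all 3497 calls and at 47.2% of all clusters kept. The most abundant of them had 3022, 2980 and 2952 CPM in Cabernet Sauvignon, against 4629 and 6270 CPM in Aglianico, and edgeR gave a log2 fold change of -1.03 with an SE of 0.21 (adjusted p = 0.0175). The next had 1072, 1377 and 1142 CPM in Cabernet Sauvignon, against 6917 and 4341 CPM in Aglianico, and the log2 fold change by edgeR was -2.44 with an SE of 0.31 (adjusted p = 0.00327). The one after it was higher in Cabernet Sauvignon. It had 3405, 2829 and 2902 CPM there, against 1339 and 1082 CPM in Aglianico, and the log2 fold change by edgeR was 1.13 with an SE of 0.24 (adjusted p = 0.0233). These clusters were ranked by level after the calls were made and carry no gene name.

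The largest increase among clusters counted in all 5 libraries belonged to Cluster-27903.28733. It had 11.2, 27.3 and 15.5 CPM in Cabernet Sauvignon, against 0.0314 and 0.0442 CPM in Aglianico, which is 1 count in each Aglianico library. Every Cabernet Sauvignon library lay far above both Aglianico libraries. The means were 18 ± 8.34 CPM (SD, n = 3) and 0.0378 ± 0.00904 CPM (SD, n = 2), and the Cabernet Sauvignon mean was 491 times the level given by the 2 Aglianico counts pooled over both library totals, with a 95% Poisson interval of 136 to 4050, which covers counting error in Aglianico only. The log2 fold change was 8.60 ± 0.71 (SE, adjusted p = 0.000889 by edgeR). At Molise the cluster had 25.3, 38.7 and 31.7 CPM in Cabernet Sauvignon and 0, 0.218 and 0 CPM in Aglianico. At Sicily it had 10.9, 22.6 and 12.6 CPM in Cabernet Sauvignon and 0, 0.132 and 0 CPM in Aglianico. The difference was therefore of the same kind at all 3 sites, and the edgeR test of a change between sites gave an adjusted p of 0.993 for Campania against Molise and 0.885 for Campania against Sicily.

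The largest decrease was that of Cluster-27903.32408. It had 0.448, 0.457 and 0.107 CPM in Cabernet Sauvignon, against 291.9 and 629.3 CPM in Aglianico. The groups were separated by more than 2 orders of magnitude, with means of 0.337 ± 0.2 CPM (SD, n = 3) and 461 ± 239 CPM (SD, n = 2). The log2 fold change was -10.56 ± 0.59 (SE, adjusted p = 0.000495 by edgeR). At Molise it had 0.795, 0.948 and 0.305 CPM in Cabernet Sauvignon and 516, 1555 and 1772 CPM in Aglianico. At Sicily it had 0.158, 0.253 and 0.2 CPM in Cabernet Sauvignon and 1461, 842 and 1013 CPM in Aglianico. The direction was the same at all 3 sites, and the edgeR test of a change between sites gave an adjusted p of 0.838 for Campania against Molise and 0.0717 for Campania against Sicily. It had 0.875 CPM in the library labelled Aglianico Campania replicate 3, within the range of the Cabernet Sauvignon libraries of the 3 sites.

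Apart from these graded differences, 109 clusters were on in Cabernet Sauvignon and off in Aglianico: they had 10 or more counts in each of the 3 Cabernet Sauvignon libraries and none in either Aglianico library. The reverse, 10 or more counts in both Aglianico libraries and none in the 3 Cabernet Sauvignon libraries, held for 170 clusters. Expected counts were rounded first, so a library with none may hold a fraction of a count. edgeR called all 109 Cabernet Sauvignon only clusters and 117 of the 170 Aglianico only clusters. The clusters were chosen from the same libraries for holding counts in a single variety. These calls, and the adjusted p-values of the on/off clusters named below, are therefore no separate evidence of a difference. Such clusters were 0.422% and 0.658% of those kept. They have no fold change with an upper limit, since the lower group held no count. The number depends on the libraries that must be empty or filled. Without Aglianico replicate 1 there were 185 Cabernet Sauvignon only and 334 Aglianico only clusters, and without Aglianico replicate 2 there were 228 and 335. The remaining 883 clusters had a count in some but not all libraries of a variety or fewer than 10 counts in one, and 311 of them were called, 180 higher and 131 lower in Cabernet Sauvignon.

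The levels and evenness of both kinds of on/off cluster are given as a description, since one list rests on 3 libraries and the other on 2. The Cabernet Sauvignon only clusters averaged 0.43 to 72.1 CPM in Cabernet Sauvignon with a median of 1.13, and 6 of 109 averaged over 10 CPM. Together they held 0.0339%, 0.0384% and 0.0374% of the counts of the 3 Cabernet Sauvignon libraries. The highest library exceeded the lowest by a median of 1.61 times, by at most 5.45 times, and stayed within 2-fold for 81 of the 109. The Aglianico only clusters averaged 0.422 to 5506 CPM in Aglianico with a median of 4.01, and 59 of 170 averaged over 10 CPM. Without the 16 clusters far higher in replicate 1, described next, the highest mean was 1707 CPM and the median 2.70 CPM. They held 4.31% of the counts of Aglianico replicate 1 and 0.67% of those of replicate 2. The 2 Aglianico libraries lay within 2-fold of each other for 84 of the 170, and edgeR called all 84. Choosing on/off clusters with even levels favours a call, so that count is a description only.

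The uneven share of Aglianico replicate 1 came from few clusters. At 16 of the 170 Aglianico only clusters, replicate 1 exceeded replicate 2 by more than 10 times, with a median level of 2257 CPM in replicate 1, against 1.06 CPM in replicate 2. These 16 held 3.89% of the counts of replicate 1 and 0.00226% of those of replicate 2, and edgeR called 0 of them. At 14 other clusters replicate 2 exceeded replicate 1 by more than 10 times, and these held 0.00283% of the counts of replicate 1 and 0.0802% of those of replicate 2, again with 0 called. Choosing clusters for a wide spread between replicates works against a call, so both values of 0 are a description only. Among the 24684 clusters counted in all 5 libraries, replicate 1 exceeded replicate 2 by more than 10 times at 55 (0.223%), against 9.41% of the Aglianico only clusters. Replicate 2 exceeded replicate 1 to that extent at 116 of the 24684, against 14 of the 170 Aglianico only clusters. In other Aglianico libraries the 16 clusters were again uneven. They held 0.0923%, 0.0343% and 0.00811% of the counts at Molise and 0.555%, 1.69% and 5.79% at Sicily, and at most 7.9e-06% in a Cabernet Sauvignon library of these sites. Counts in the 16 clusters therefore took part of the depth of some Aglianico libraries, and their part in other results was not tested.

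**Figure D2:**
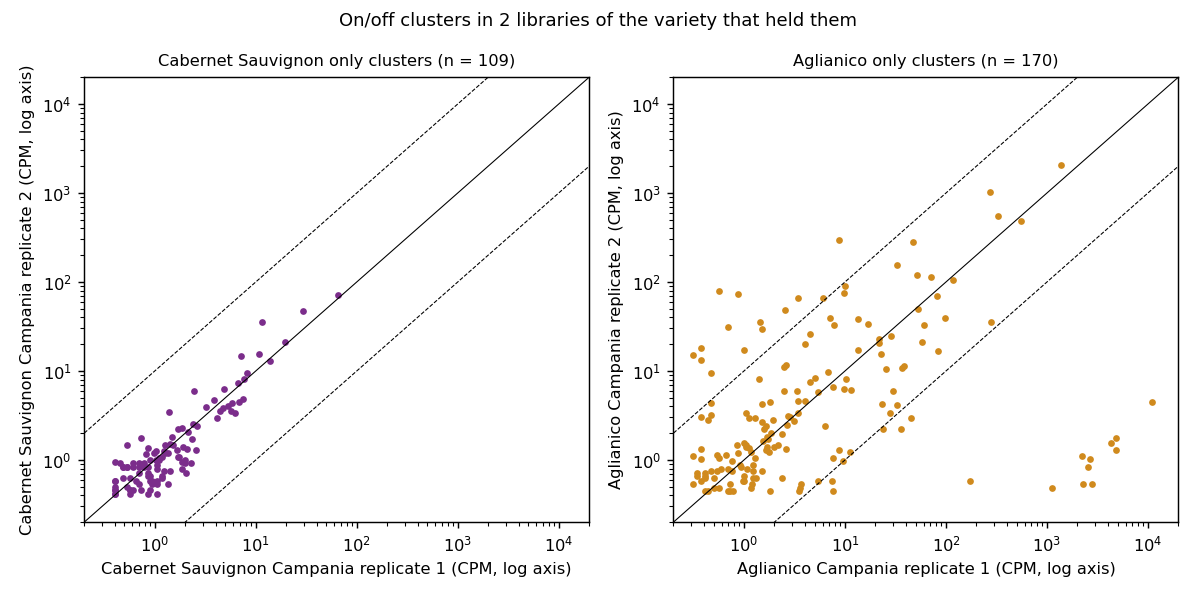
Levels of the on/off clusters in replicates 1 and 2 of the variety that held them (CPM, log axes), with 109 Cabernet Sauvignon only clusters on the left and 170 Aglianico only clusters on the right. The solid line marks equal levels and the dashed lines a 10-fold difference; all 109 purple points lie between the dashed lines, whereas 16 orange points lie below and 14 above them.

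The most abundant Cabernet Sauvignon only cluster, Cluster-27903.47379, had 65.4, 71.8 and 79.1 CPM in Cabernet Sauvignon and no count in Aglianico. Its mean of 72.1 ± 6.88 CPM (SD, n = 3) was at least 1310-fold higher than 3 counts summed over the 2 Aglianico libraries (adjusted p = 7.39e-05 by edgeR). The cluster behaved alike at the other sites. It had 63.1, 63.4 and 62.8 CPM in Cabernet Sauvignon at Molise and 72.5, 62.3 and 76.3 CPM at Sicily, and no count in any of the 6 Aglianico libraries there. It had 83.5 CPM in the library labelled Aglianico Campania replicate 3.

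The most abundant called Aglianico only cluster, Cluster-27903.61901, had no count in Cabernet Sauvignon and 1381 and 2033 CPM in Aglianico. Its Cabernet Sauvignon level was at least 43700-fold lower than the Aglianico mean of 1710 ± 461 CPM (SD, n = 2), with 3 counts summed over the 3 Cabernet Sauvignon libraries as the floor (adjusted p = 7.39e-05 by edgeR). Unlike the clusters above, it had no count in any of the 12 libraries of Molise and Sicily, Aglianico included. In the library labelled Aglianico Campania replicate 3 it had 2 counts. The fit of a difference between sites gave no usable estimate for this cluster, because 3 of the 4 groups held no count. Over all 25846 clusters, 4 had no count at the other sites, and all 4 were Aglianico only clusters. They averaged 1707, 565, 24 and 17.9 CPM in Aglianico at Campania and held 0.258% of the counts of replicate 1 and 0.205% of those of replicate 2. They were singled out after their values were seen.

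**Figure D3:**
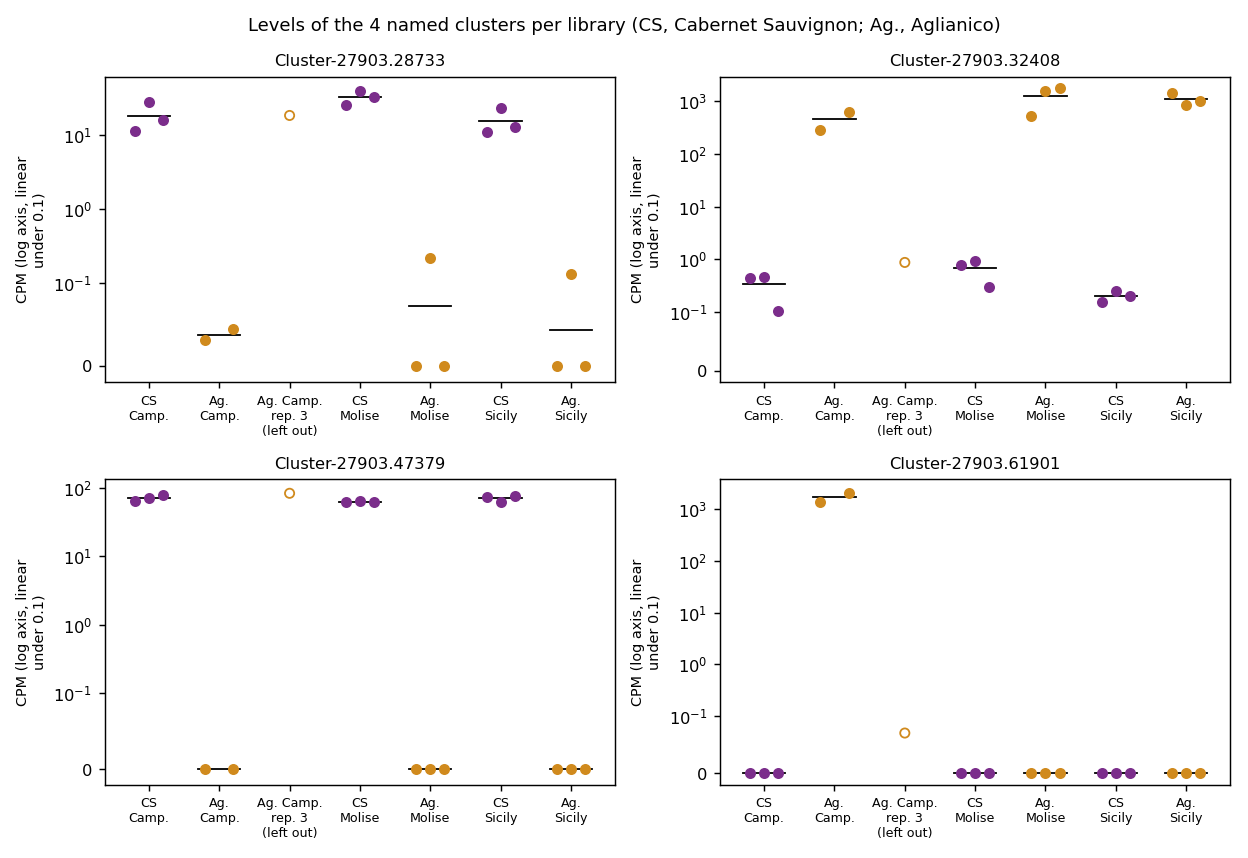
Levels of the 4 named clusters in each of the 18 libraries (CPM, log axis that is linear under 0.1); points are libraries, black lines are group means, and the open circle is the left-out library. The top left cluster and the bottom left cluster are higher in Cabernet Sauvignon at every site, the top right cluster is lower in Cabernet Sauvignon at every site, and the bottom right cluster is present at 1381 and 2033 CPM in 2 Aglianico Campania libraries and at 0.07 CPM in the left-out library.

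The libraries of Molise and Sicily took no part in choosing the on/off clusters, so they show how far each pattern held. Of the 109 Cabernet Sauvignon only clusters, 78 to 87 had 10 or more counts in each Cabernet Sauvignon Molise library, against 1 to 7 in each Aglianico Molise library. At Sicily 70 to 91 had 10 or more counts in each Cabernet Sauvignon library, against 27 to 31 in each Aglianico library. The full pattern, 10 counts in each Cabernet Sauvignon library and none in any Aglianico library, held for 41 clusters at Molise, 33 at Sicily and 21 at both. Of the 170 Aglianico only clusters, 1 to 6 had 10 or more counts in each Cabernet Sauvignon Molise library, against 92 to 118 in each Aglianico Molise library. At Sicily these numbers were 2 to 3 in Cabernet Sauvignon and 49 to 74 in Aglianico. The full pattern held for 66 at Molise, 28 at Sicily and 11 at both. In all, 123 of the 170 had no count in any Cabernet Sauvignon library of the other sites, and 40 of the 109 had none in any Aglianico library.

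By clusters with 10 or more counts, the library labelled Aglianico Campania replicate 3 followed Cabernet Sauvignon in both lists. It had a count for 109 of the 109 Cabernet Sauvignon only clusters, 104 of them with 10 or more counts, and those clusters held 0.0358% of its counts. Of the 170 Aglianico only clusters it held 10 or more counts of 0 and a count of 30. The Cabernet Sauvignon libraries of Molise and Sicily held 10 or more counts of 1 to 6 and a count of 10 to 22. At 2912 of the 2960 called clusters counted in all 5 libraries (98.4%) its log2 CPM was nearer to the Cabernet Sauvignon mean than to the Aglianico mean. Its values did not enter the choice of these clusters. It was left out because its profile was that of Cabernet Sauvignon. These figures therefore describe that profile again and are no separate evidence.

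**Figure D4:**
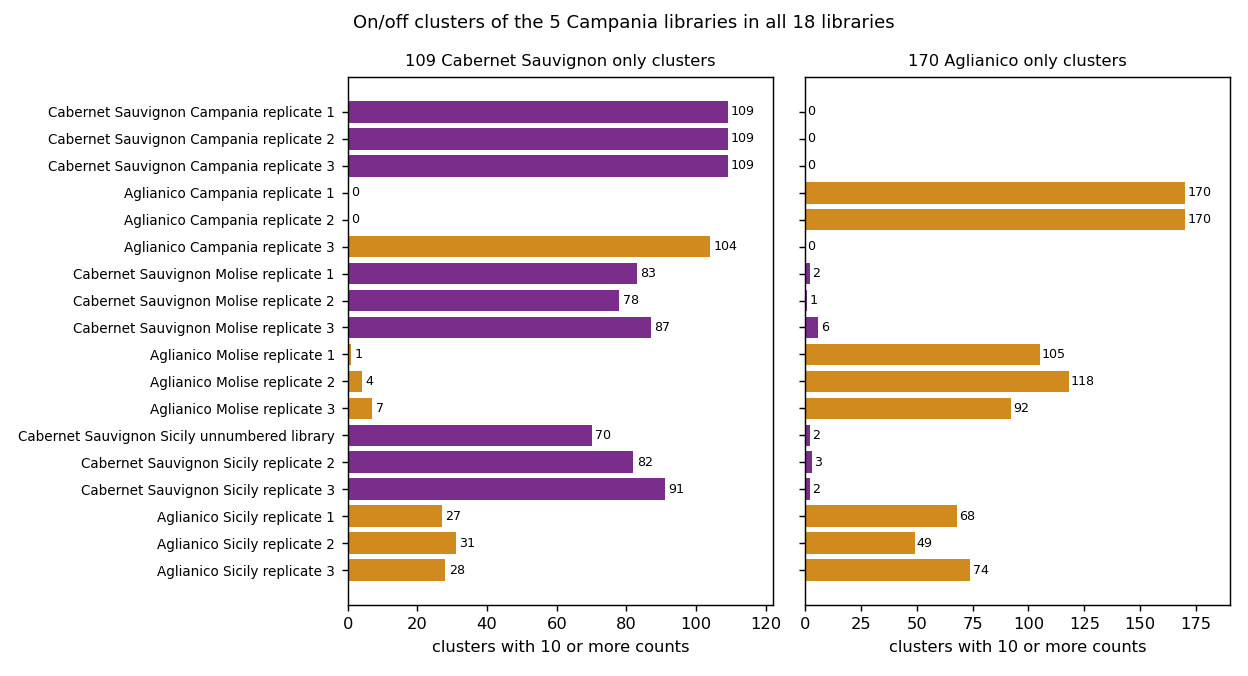
Number of the 109 Cabernet Sauvignon only clusters (left) and of the 170 Aglianico only clusters (right) with 10 or more counts in each of the 18 libraries; purple bars are libraries labelled Cabernet Sauvignon and orange bars libraries labelled Aglianico. The library labelled Aglianico Campania replicate 3 shows 104 and 0, beside 109 and 0 in the Cabernet Sauvignon Campania libraries.

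The same variety difference was then fitted separately at each of the other sites, in libraries that share nothing with the Campania fit. At Molise, 4059 of 25339 clusters were called (16%), 7.38% higher and 8.64% lower in Cabernet Sauvignon. Of the 2960 Campania calls counted in all 5 libraries, 2899 could be tested at Molise and 2344 of these (80.9%) had the same direction there. The same direction was called for 1132 (39%) and the opposite for 48 (1.66%). Among clusters not called at Campania, 60.2% had the same direction at Molise. The agreement was 86.8% for clusters lower in Cabernet Sauvignon at Campania and 75.6% for clusters higher, a difference that was not tested. The log2 fold change at Molise, signed by the direction at Campania, had a median of 0.71, against a median size of 1.63 at Campania, where the clusters were selected for their size.

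Called on/off clusters could be followed at the other sites only where they passed the filter there, which they mostly did through the variety that held them at Campania, so their direction is given as a description. Of the 109 Cabernet Sauvignon only clusters 83 could be tested at Molise and 81 had the same direction, 74 of them called. Of the 117 called Aglianico only clusters, out of 170, 87 could be tested at Molise and 86 had the same direction, 56 of them called. At Sicily, 84 of the Cabernet Sauvignon only clusters could be tested, 65 (77.4%) had the same direction, 49 were called in it and 6 (7.14%) in the opposite one. Of the called Aglianico only clusters 39 could be tested there and 37 had the same direction, 22 of them called. Over all kinds of cluster, 1385 Campania calls were also called in the same direction at Molise. Leaving out one Cabernet Sauvignon library of Campania changed that number to 878 (replicate 1), 864 (replicate 2) or 777 (replicate 3). Leaving out one Cabernet Sauvignon library of Molise gave 846 (replicate 1), 903 (replicate 2) or 931 (replicate 3). Without Aglianico Molise replicates 1, 2 and 3 the number was 1228, 1415 and 1205.

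The share with the same direction was lower at Sicily than at Molise, a difference that was not tested. At Sicily 5265 of 25086 clusters were called (21%), 10.9% higher and 10.1% lower in Cabernet Sauvignon. Of 2841 Campania calls counted in all 5 libraries and tested at Sicily, 1685 (59.3%) had the same direction, 656 (23.1%) were called in the same direction and 275 (9.68%) in the opposite one. Among clusters not called at Campania, 52.3% had the same direction at Sicily. The signed median log2 fold change at Sicily was 0.23, against a median size of 1.60 at Campania. Over all kinds of cluster, 803 Campania calls were also called in the same direction. Leaving out one Cabernet Sauvignon library of Campania changed it to 492 (replicate 1), 495 (replicate 2) or 435 (replicate 3). Leaving out one Aglianico library of Sicily gave 422 (replicate 1), 524 (replicate 2) or 458 (replicate 3). The number was 564 without the Cabernet Sauvignon Sicily library with no legible replicate number. It was 888 and 718 without Cabernet Sauvignon Sicily replicates 2 and 3.

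**Figure D5:**
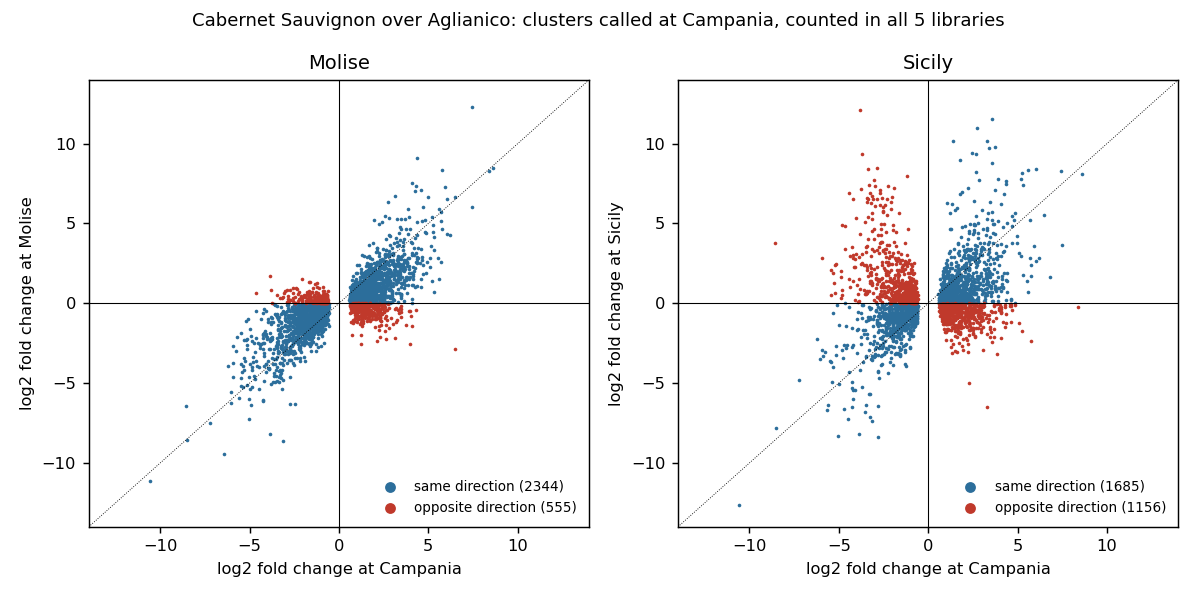
Log2 fold change (Cabernet Sauvignon over Aglianico) at Molise (left) and Sicily (right) against that at Campania, for clusters called at Campania and counted in all 5 libraries; each point is a cluster and the dotted line marks equal values. Blue points kept their direction, 2344 at Molise and 1685 at Sicily; on the right, a plume of red points at negative Campania values reaches large positive values at Sicily.

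Among clusters counted in all 5 libraries, 58 were called lower in Cabernet Sauvignon at Campania and were at least 16-fold higher in Cabernet Sauvignon at Sicily, against 2 clusters with the reverse change; 38 of the 58 were called at Sicily. This group was chosen after its values were seen and is described without a test. Its summed share of the counts was 0.00949%, 0.00964% and 0.00898% in Cabernet Sauvignon at Campania, against 0.0471% and 0.0585% in Aglianico at Campania. At Molise the shares were 0.0165%, 0.0229% and 0.0175% in Cabernet Sauvignon and 0.0423%, 0.135% and 0.0388% in Aglianico. At Sicily they were 0.392% in the Cabernet Sauvignon library with no legible replicate number, 0.368% in replicate 2 and 0.144% in replicate 3, against 0.00847%, 0.00682% and 0.00265% in Aglianico. Choosing clusters at least 16-fold higher in Cabernet Sauvignon at Sicily favours high shares there. All 3 Cabernet Sauvignon libraries of Sicily lay above every other library for this group. The first 2 of them had 29228 and 45103 clusters with 10 or more counts, more than the 19173 to 25466 of the other 16 libraries. Without them, leaving 1 Cabernet Sauvignon library at Sicily whose spread was taken from the Aglianico libraries, 1722 of 2639 Campania calls counted in all 5 libraries (65.3%) had the same direction at Sicily, 300 were called in it and 70 in the opposite one.

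Whether the variety difference itself changed between sites was tested as an interaction by edgeR. Between Campania and Molise it changed for 560 of 28477 clusters (1.97%), with the difference larger in the direction of Cabernet Sauvignon at Campania for 315 and smaller for 245; under upper-quartile scaling 38.4% of calls were of the first kind, against 56.2% with TMM. Between Campania and Sicily it changed for 4228 of 29058 clusters (14.6%), 1788 in the direction of Cabernet Sauvignon and 2440 in that of Aglianico. Of the 2960 Campania calls counted in all 5 libraries, 351 had an interaction with Molise and 1251 with Sicily. All 48 of them called in the opposite direction at Molise, and all 275 at Sicily, were among these. Calls of opposite sign at 2 sites make an interaction call likely in a fit on the same libraries. This overlap is therefore no separate evidence. The 2960 clusters were also selected for their difference at Campania, which enters the interaction. The 2 interaction counts share the Campania libraries, and the difference between them was not tested.

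The interaction counts depended on single libraries. For Molise, leaving out one Cabernet Sauvignon library of Campania gave 158 (replicate 1), 87 (replicate 2) or 306 (replicate 3), and leaving out Aglianico Campania replicate 2 gave 313. The count was 146, 148 and 155 without Cabernet Sauvignon Molise replicates 1, 2 and 3, and 313, 1719 and 237 without Aglianico Molise replicates 1, 2 and 3. For Sicily, leaving out one Cabernet Sauvignon library of Campania gave 2408 (replicate 1), 2347 (replicate 2) or 2581 (replicate 3), and leaving out Aglianico Campania replicate 2 gave 1934. The count was 1909 without the 2 Cabernet Sauvignon Sicily libraries with many detected clusters, and 2543, 2816 and 2547 without Aglianico Sicily replicates 1, 2 and 3.

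Across the 3 sites, 3056 of the 3497 Campania calls could be tested everywhere. Cabernet Sauvignon was called higher at all 3 sites for 272 of 1659 and lower at all 3 for 262 of 1397. A call in one direction at both Campania and Molise with the opposite call at Sicily was found for 28 clusters higher and 48 lower in Cabernet Sauvignon at Campania. An interaction with both other sites was found for 141 clusters higher and 85 lower at Campania. Over all clusters tested, 1.97% had an interaction with Molise and 14.6% with Sicily. Both interactions share the Campania libraries, and the clusters were selected for their difference there, so the 2 are not separate evidence. How often these patterns across sites occur among clusters not called at Campania was not counted.

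Values that were not whole numbers, which arise when reads are divided between clusters, were unevenly spread over the kinds of cluster. At least 1 of the 5 values was not whole (by more than 1e-06) for 14.7% of the Cabernet Sauvignon only clusters, 54.7% of the Aglianico only clusters, 30.9% of those in between and 46.7% of the clusters counted in all 5 libraries. Levels of clusters with divided reads are uncertain to that extent, and the part of this in the calls was not tested.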

How the data were processed

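Messenger RNA of ripe berries was sequenced, and samples were grouped by their titles. The authors deposited expected counts for transcript clusters, which may hold fractions of a read and were not scaled for depth (library totals differ). CASAVA 1.8, RSEM and DESeq2 appear, with no role given, per the submitters' processing notes; aligner, assembler and build were not given in the sources used here. All 18 columns were mapped and 0 left aside; the column of 1 Cabernet Sauvignon Sicily library has no readable replicate number, so it was placed by group alone.

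Expected counts were rounded. Clusters with 10 or more counts in at least 2 libraries of a fit were kept. Differences were tested with edgeR 4.0.16 (TMM, glmQLFit and glmQLFTest, robust) in R 4.3.3, on 5 Campania, 6 Molise or 6 Sicily libraries, with Benjamini-Hochberg adjustment over all clusters kept and calls at an adjusted p under 0.05. Interactions were fitted on 11 libraries. Each standard error is the size of the log2 fold change over the square root of the F statistic. Correlations used log2 CPM with a prior count of 2. Alternatives used DESeq2 1.42.0, limma 3.58.1, other scalings and filters. The scripts were tested on simulated data; where clusters had very high dispersion, false calls exceeded the nominal rate. Any 2 of the 5 libraries differed by more than sampling noise (chi-square per degree of freedom 36.5 or more, over clusters whose counts sum to 20 or more).

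Because clusters carry no gene names, at most 2 higher and 2 lower were named: among called clusters counted in all 5 libraries, the largest change each way averaging 5 CPM or more without overlap, and among called on/off clusters the most abundant of each kind. Members, lists and rules were chosen with earlier results of these data known. Intervals and floors of 3 counts cover counting error only.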

Additional observations from a re-analysis of the deposited data

Results flagged for a closer look

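The variety difference depended on the site: by the interaction test of edgeR, 560 clusters differed between Campania and Molise and 4228 between Campania and Sicily. The difference between the 2 interaction counts was not tested.

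The library labelled Aglianico Campania replicate 3, which entered only the alternative fits under its label, carried a signal of the other variety. It had a count for 109 of the 109 Cabernet Sauvignon only clusters, and they held 0.0358% of its counts, against 0 clusters and 0% in Aglianico Campania replicates 1 and 2. The values of 0 follow from how these clusters were chosen, and the library had been left out for its profile. The source of the signal was not tested.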

How the results depend on the processing

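Under RLE and upper-quartile scaling, filterByExpr and limma-voom, the number of calls at Campania (all clusters, and those counted in all 5 libraries) and the same-direction counts at Molise and Sicily stayed within 1.5 times. With no filter there were 5422 calls, with 2172 same-direction calls at Molise and 234 at Sicily. By DESeq2 there were 5264 calls, 4611 of them in clusters counted in all 5 libraries, with 2170 same-direction calls at Molise and 1566 at Sicily, and interaction counts of 2172 (Molise) and 7251 (Sicily). A fit on 17 libraries gave 1401 same-direction calls at Sicily. Without 2 Cabernet Sauvignon Sicily libraries there were 328, and an interaction count of 1909. With Aglianico Campania replicate 3 added under its label, edgeR gave 0 calls (2087 at an unadjusted p under 0.05; DESeq2 208, limma-voom 0), hence 0 same-direction calls at each site, interaction counts of 3 and 1935, and 0 on/off clusters of either kind. The causes were not tested. All 4 named clusters kept their call and direction in every other alternative in which they had a value (Cluster-27903.61901 had none without either Aglianico library, since the filter then removed it), and lost the call when that library was added (adjusted p 0.614 to 0.844 by edgeR). The log2 fold change was then 1.68 for Cluster-27903.28733, against 8.60 without it, and -9.98 for Cluster-27903.32408, against -10.56; that of Cluster-27903.47379 also shrank, whereas Cluster-27903.61901 stayed about as far lower.

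With 1 library left out at a time, calls ranged from 1581 to 3020 and calls among clusters counted in all 5 libraries from 1249 to 2808. Same-direction calls ranged from 777 to 1415 at Molise and 422 to 888 at Sicily, and interaction counts from 87 to 1719 and from 1934 to 4856. On/off clusters ranged from 126 to 228 (Cabernet Sauvignon only) and 187 to 335 (Aglianico only). The mean difference (Cabernet Sauvignon minus Aglianico) in clusters detected ranged from -678.5 to 872, and that in the share of the 20 most abundant clusters from -3.68 to 2.44 percentage points. The alternatives that leave out libraries of Molise or Sicily were chosen after seeing the data. Cabernet Sauvignon only and Aglianico only clusters numbered 39 and 92 with 30 counts for on, 46 and 102 with 1 CPM for on, and 166 and 214 with at most 1 count for off.

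Whether the replicate numbers pair the libraries could not be settled. Deviations from the variety means correlated at -0.045 for replicates 1 and at 0.037 for replicates 2. With only 2 Aglianico libraries their deviations are exact opposites, so these are not separate checks. With the replicate number as a block, which leaves 1 residual degree of freedom, there were 589 calls, 435 in clusters counted in all 5 libraries, and 369 and 206 same-direction calls at Molise and Sicily. Of clusters under 1 CPM, 4.81% were called, and the smallest difference detectable at a given level was not measured.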
